A study of Mus musculus with 6 samples.

Results

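The genes described here encode the cytosolic machinery that starts translation on an mRNA and then moves the ribosome along it. They were taken as every gene whose name begins with Eif1 to Eif6 or with Eef1 or Eef2 in the authors' list of compared genes. That rule gave 68 genes of the 56923 in the count table, of which 54 are initiation factor genes (Eif) and 14 are elongation factor genes (Eef). The set holds the processed pseudogenes Eif4a-ps4 and Eef2-ps2. All 68 passed the filter on low counts, which kept 17212 genes, and no member had fewer than 100 counts in any mouse. Eif4e1b, Eif4ebp3 and Eef1akmt3 stood in the count table but not in the authors' list, with 0, 64 and 35 counts over the 6 mice. These low-count genes were absent before the filter was applied, so its passing by all 68 members was largely set by the list. The authors' list is also shorter than the 17212 genes kept. Shares of all genes given below therefore include genes outside it, and the members were not compared with the listed genes alone.

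RNA was sequenced from hearts of 12-week-old mice, with 3 wild-type mice (WT1 to WT3) and 3 mutant mice (Mut1 to Mut3), 1 library per mouse. The labels give the mutant genotype only as a mutation and the tissue only as heart. The study describes the tissue as left ventricles (LVs) and the mutants as Lztr1 R409C/+, heterozygous for a knock-in allele made with CRISPR/Cas9 on a C57BL/6J background, while WT mice are Lztr1 +/+. Lztr1 encodes an adaptor that directs RAS family proteins to degradation, and the study uses this allele as a mouse model of Noonan syndrome with cardiac hypertrophy. No treatment is given for these mice in the labels. The study states that it assessed the phenotypes of the mutation in males only.

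Total counts ran from 66130887 to 72641124 per mouse. Lztr1 itself gave 24.2, 24.2 and 22.2 CPM (counts scaled to a common library size) in WT and 23.9, 27.9 and 25.3 in Mut mice, and since the allele changes an amino acid, this level does not check the labels. The share of counts from mitochondrially encoded genes was 13.8% in WT3 and 45.4% in Mut1, against 29.7% to 37.3% in the other libraries. These 2 libraries stand apart from the rest. All 8 cardiomyocyte markers were detected, with a summed level of 39165 to 43855 CPM in WT and 29396 to 41429 CPM in Mut mice. The 4 atrial markers summed to 38.1 to 76.6 CPM in WT and 53.5 to 107 CPM in Mut mice, nearly all of it Nppa, while Myl7 and Sln were at 0 in at least 1 mouse and at most 0.262 CPM in any. The 5 skeletal muscle markers summed to 1368 to 1670 and 1484 to 1823 CPM, from Ckm and Acta1, which the heart also expresses, and Myh1, Myh2 and Myh4 were at 0 in at least 1 mouse and at most 0.0722 CPM in any. The 7 macrophage markers summed to 183 to 209 CPM in WT and 315 to 420 CPM in Mut mice, and the 5 red blood cell markers to 579 to 1479 and 1042 to 2625 CPM. The part of these cells in the values below was not tested. In bulk tissue, fewer cells of a type and less RNA per cell cannot be told apart.

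Translation begins when eIF2 brings the initiator tRNA to the small ribosomal subunit, which also carries eIF1, eIF1A, eIF3 and eIF5. The complex eIF4F (the cap-binding eIF4E, the scaffold eIF4G and the helicase eIF4A) recruits it to the capped mRNA, and eIF4E-binding proteins block that step until mTORC1 phosphorylates them. In elongation, eEF1A delivers each aminoacyl-tRNA, the eEF1B subunits recharge eEF1A with GTP, and eEF2 moves the ribosome to the next codon. Adult heart and skeletal muscle are known for eEF1A2, a close paralog that takes over from eEF1A1 as muscle matures. The counts measure mRNA and carry no information on the phosphorylation through which much of this machinery is regulated.

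The eEF1A paralogs are shown first, because the smallest unadjusted p among the elongation factor genes belongs to Eef1a1 and rests on telling its reads from those of Eef1a2. Eef1a1 (ENSMUSG00000037742.15) lies on chr9:78384916-78396778 and Eef1a2 on chr2:180778581-180799838, both on the minus strand of GRCm39. The first 90 coding bases of each lie in exon 2 of the canonical transcript, at chr9:78387847-78387936 and chr2:180797110-180797199. Capitals mark the 15 bases at which they differ.
Eef1a1: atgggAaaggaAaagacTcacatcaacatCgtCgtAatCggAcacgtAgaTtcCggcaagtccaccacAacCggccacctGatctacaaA
Eef1a2: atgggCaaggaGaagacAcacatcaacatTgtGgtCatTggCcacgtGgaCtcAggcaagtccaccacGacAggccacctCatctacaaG
Over the whole coding sequences of 1386 and 1389 bases the identity was 79.9%, and the longest identical run was 23 bases. Eef1a1 has 9 near-identical annotated copies, 8 of them pseudogenes. The 8 copies in the count table held 1.44% as many counts as Eef1a1 itself. Eef1a2 shares no exon with a counted gene.

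No initiation or elongation factor gene passed the threshold of 0.05 on the adjusted p between Mut and WT mice (0 of 68, quasi-likelihood test in edgeR, p adjusted by Benjamini-Hochberg across all 17212 genes). Over all genes the same test called 0.0407%, of which 0.0349% were higher and 0.00581% lower in Mut mice. The smallest adjusted p of any member was 0.475, for Eif4ebp1. At an unadjusted p under 0.05 there were 3 members (4.41%), against 8.63% of all genes, with 1 of the 54 initiation factor genes (1.85%) and 2 of the 14 elongation factor genes (14.3%). Eif4ebp1 and Eef1a1 had higher means in Mut mice, as did 5.77% of all genes at that p, and Eef1aknmt had a lower mean, as did 2.86%. DESeq2's Wald test and edgeR's exact test also called 0 members after adjustment, where they called 0.872% and 0.813% of all genes. These 3 genes belong to both stages of translation and lay in both directions.

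CPM that did not overlap between the groups were found for 8 members (11.8%), against 15.5% of all genes tested, with 6 initiation (11.1%) and 2 elongation factor genes (14.3%). In 3 of these the Mut mice were higher (Eef1a1, Eif4ebp1 and Eif2d), where the share of all genes was 8.3%. In the other 5 the Mut mice were lower (Eef1aknmt, Eif2b5, Eif2ak1, Eif4ebp2 and Eif5b), where it was 7.23%. Both shares of the members (4.41% higher, 7.35% lower) were near or under those of all genes.

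The fitted differences were small. The median log2 fold change (Mut over WT) was -0.018 over the 54 initiation factor genes, 0.12 over the 14 elongation factor genes and 0.012 over all genes tested. Of the initiation factor genes 24 lay above 0 and 30 below, and of the elongation factor genes 11 lay above and 3 below. Over all genes tested 51.4% lay above 0. An absolute log2 fold change over 0.3 was reached by 7 members (10.3%) and by 36.9% of all genes. The median level of the members was higher than that of all genes tested, at 43.3 CPM against 7.69 CPM. Some members lay below that all-gene median, such as Eif5a2 at 2.37 CPM. Standard errors of the members ran from 0.14 to 0.35 on the log2 scale, with a median of 0.18. The 95% interval of the fold change stayed within 2-fold either way for 67 of the 68 and within 1.5-fold for 44. Eif4e was the member outside the 2-fold bound.

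**Figure D1:**
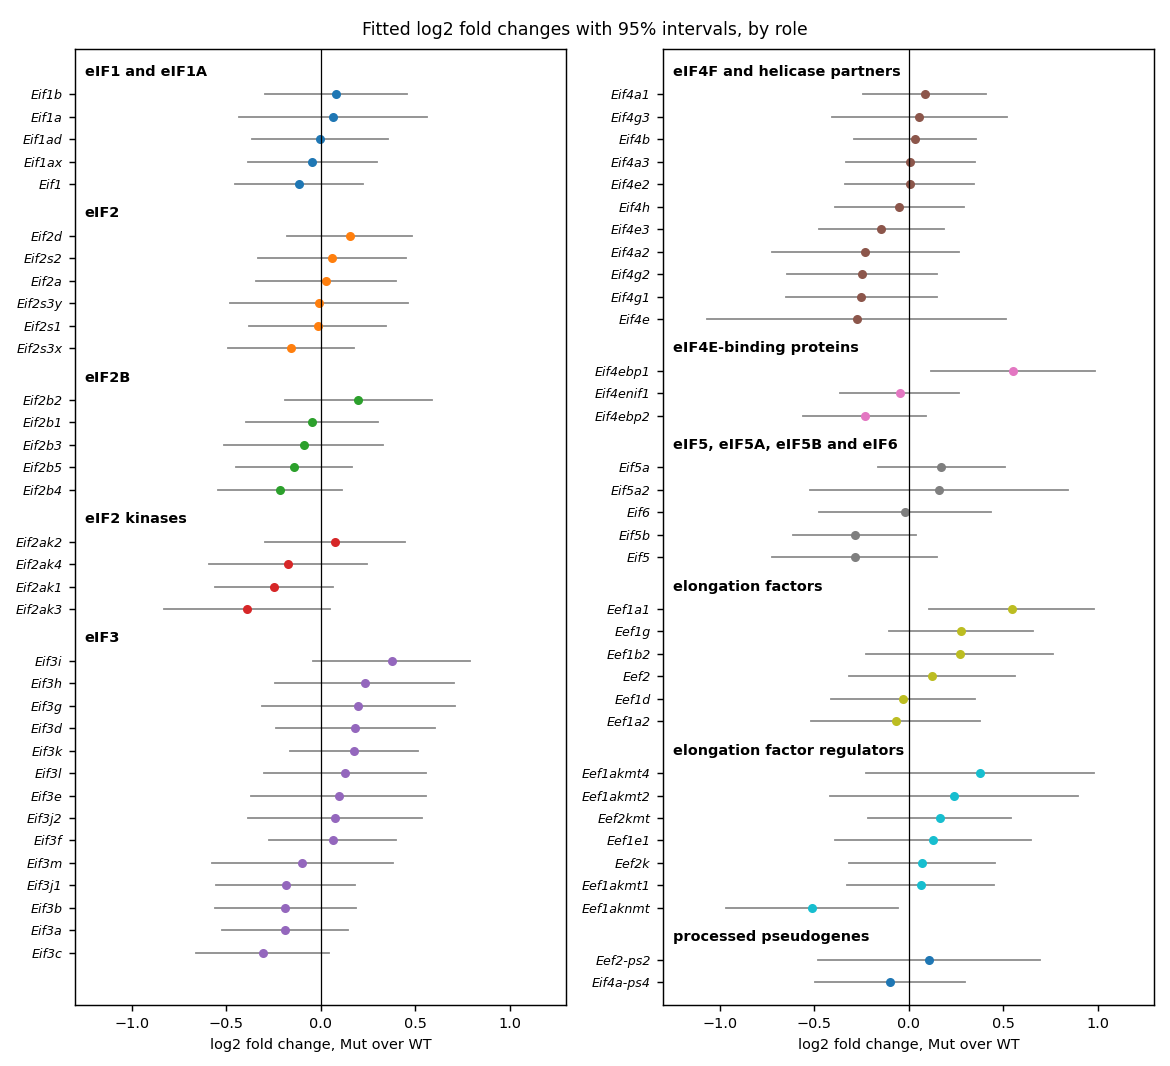
Fitted log2 fold change of each of the 68 genes (Mut over WT, horizontal axis, points) with its 95% interval (grey lines), grouped by role, from 3 mice per group. The intervals of Eif4ebp1, Eef1a1 and Eef1aknmt exclude 0 before adjustment, and those of the other 65 genes include it.

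Among the elongation factors, Eef1a1 gave 546, 515 and 597 CPM in WT mice and 1051, 643 and 723 CPM in Mut mice. Every Mut mouse lay above every WT mouse, and Mut1 stood far above the other 5. The fitted difference was a log2 fold change of 0.54 ± 0.20 (SE, n = 3 per group; unadjusted p = 0.0188, adjusted p = 0.495, edgeR). Without Mut1 the log2 fold change was 0.30 (adjusted p = 0.690, edgeR), and without both WT3 and Mut1 it was 0.37 (adjusted p = 0.491).

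Eef1a2, the muscle paralog, gave 1110, 966 and 742 CPM in WT and 828, 773 and 1084 CPM in Mut mice. The groups overlapped over nearly their whole range, and the log2 fold change was -0.069 ± 0.20 (SE, adjusted p = 0.953, edgeR). Its sign turned without WT1 (0.067) and without Mut2 (0.020). Within each mouse, the ratio of Eef1a2 to Eef1a1 counts was 2.03, 1.88 and 1.24 in WT and 0.79, 1.2 and 1.5 in Mut mice. Mut1 was the only mouse with more Eef1a1 than Eef1a2 counts. The log2 ratio was 0.75 ± 0.38 (SD) in WT and 0.17 ± 0.47 (SD) in Mut mice, a difference of -0.58 that did not pass a two-sided exact permutation test (p = 0.2, n = 3 per group). The smallest p that test can give with 3 mice against 3 is 0.1. The difference was -0.32 without Mut1 and -0.80 without WT3.

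Eef2, the translocase, gave 1055, 929 and 660 CPM in WT and 936, 862 and 1080 CPM in Mut mice. WT3 was the lowest of the 6, and the log2 fold change of 0.12 ± 0.20 (SE) became -0.050 without it. Eef2-ps2, a processed pseudogene on chromosome 4, gave 5.55, 4.30 and 2.70 CPM in WT and 4.42, 4.73 and 4.36 CPM in Mut mice. It is near-identical to Eef2 and has 0.469% as many counts, so its own transcription cannot be told apart from misplaced Eef2 reads.

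The eEF1B subunits recharge eEF1A. Eef1g, the gamma subunit, gave 161, 144 and 144 CPM in WT and 204, 142 and 197 CPM in Mut mice (log2 fold change 0.28 ± 0.17, SE). Eef1b2, another subunit, gave 82.5, 69.2 and 97.3 CPM in WT and 134, 69.1 and 96.8 CPM in Mut mice (0.27 ± 0.23, SE). For both genes Mut1 was the highest mouse and Mut2 lay just below the lowest WT mouse. Without Mut1 the value of Eef1b2 was -0.0086. Exons of Eef1b2 overlap on the opposite strand with Ndufs1, which has 675% as many counts, and the strand used in counting is not given in the sources used here, so the level of Eef1b2 is uncertain. Eef1d, the delta subunit, gave 61.2, 52.9 and 73.3 CPM in WT and 60.5, 52.2 and 70.9 CPM in Mut mice, nearly the same spread in both groups (log2 fold change -0.031 ± 0.18, SE).

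**Figure D2:**
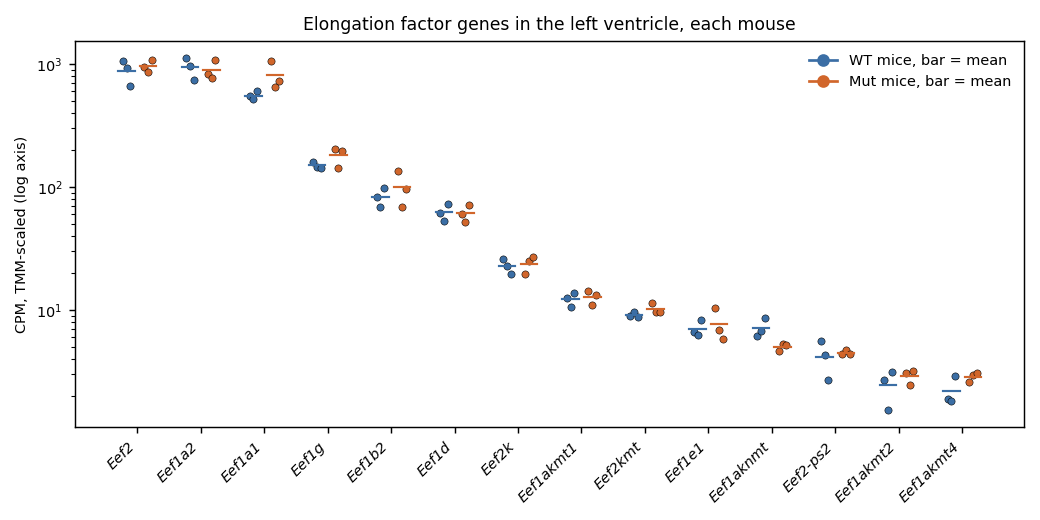
CPM of the 14 elongation factor genes in each mouse on a log axis (blue, WT; orange, Mut; short bars, group means; 3 mice per group). The 3 Mut mice lie above the 3 WT mice for Eef1a1 (643 to 1051 against 515 to 597 CPM) and below them for Eef1aknmt, and the other 12 genes overlap.

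Of the regulators of the elongation factors, Eef1aknmt (chr1:162359694-162376120), which methylates eEF1A, gave 6.16, 6.70 and 8.66 CPM in WT and 4.66, 5.29 and 5.15 CPM in Mut mice. The groups did not overlap, and WT3 was the highest mouse. The log2 fold change was -0.51 ± 0.21 (SE, n = 3 per group; unadjusted p = 0.0303, adjusted p = 0.532, edgeR). It was -0.35 without WT3 and -0.30 without both WT3 and Mut1. The methyltransferase genes Eef1akmt1, Eef1akmt2 and Eef1akmt4, which modify eEF1A lysines, and Eef2kmt, which modifies eEF2, had log2 fold changes of 0.063, 0.24, 0.38 and 0.16. None of these passed an unadjusted p of 0.05. Eef2kmt shares exons on the opposite strand with Alg1, which has 103% as many counts, so its level is uncertain. Eef1akmt4 gave 1.91, 1.83 and 2.89 CPM in WT and 2.58, 2.98 and 3.08 CPM in Mut mice. It shares exons with the readthrough gene Eef1ece2 and with Alg3 on the opposite strand, so its reads cannot be assigned to it alone.

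Eef2k, the kinase that phosphorylates and slows eEF2, gave 26.2, 22.6 and 19.5 CPM in WT and 19.8, 24.9 and 26.9 CPM in Mut mice. Those ranges nearly coincide (log2 fold change 0.070 ± 0.18, SE). Eef1e1 encodes a small scaffold protein of the multi-tRNA synthetase complex. It gave 6.67, 6.21 and 8.23 CPM in WT and 10.4, 6.85 and 5.86 CPM in Mut mice, with both the highest and the lowest value in the Mut group.

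Of the eIF4E-binding protein genes, Eif4ebp1 (ENSMUSG00000031490.7, chr8:27750350-27805206) gave 18.7, 16.4 and 13.0 CPM in WT and 19.3, 22.1 and 29.2 CPM in Mut mice. The groups did not overlap, but WT1 and Mut1 lay close together and Mut3 was the highest mouse. The log2 fold change was 0.55 ± 0.20 (SE, n = 3 per group; unadjusted p = 0.0167, adjusted p = 0.475, edgeR). It was 0.37 without Mut3 and 0.42 without WT3. Eif4ebp2, the more abundant paralog here, gave 118, 133 and 137 CPM in WT and 103, 117 and 110 CPM in Mut mice. Every Mut mouse lay below every WT mouse, with WT1 and Mut2 close together. The log2 fold change was -0.23 ± 0.15 (SE, adjusted p = 0.707, edgeR), and it was -0.15 without both WT3 and Mut1. Eif4enif1, whose protein carries eIF4E into the nucleus, had a log2 fold change of -0.047.

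The eIF4F genes overlapped throughout. Eif4e, the cap-binding subunit, gave 126, 138 and 144 CPM in WT and 164, 124 and 48.6 CPM in Mut mice. Mut1 was the highest and Mut3 by far the lowest of the 6. Eif4e had the widest interval of any member, with a log2 fold change of -0.28 ± 0.35 (SE), and the value was 0.084 without Mut3. Its paralog Eif4e3 gave 56.0, 58.2 and 57.4 CPM in WT and 58.4, 51.7 and 44.9 CPM in Mut mice, so that in Mut3 the Eif4e3 counts came to 0.93 of those of Eif4e, against 0.36 to 0.44 in the other 5 mice.

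Eif4g2, which encodes a scaffold relative that lacks the eIF4E-binding site, had the highest CPM of the initiation factor genes, not corrected for length, with 1023, 1151 and 1175 CPM in WT and 1025, 1029 and 771 CPM in Mut mice. Eif4g1, the main scaffold, gave 362, 342 and 351 CPM in WT and 228, 297 and 361 CPM in Mut mice. The WT mice lay close together, while the Mut mice spread from well below them up to the WT level. The log2 fold changes were -0.25 ± 0.18 (SE) for both genes, and became -0.12 for Eif4g2 without Mut3 and -0.10 for Eif4g1 without Mut1. Eif4g3 gave 53.6, 53.9 and 40.4 CPM in WT and 35.2, 55.4 and 63.2 CPM in Mut mice (0.056 ± 0.21, SE).

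The helicase genes Eif4a1 and Eif4a2 also overlapped. Eif4a2, the more abundant in heart, gave 316, 286 and 483 CPM in WT and 385, 292 and 248 CPM in Mut mice. WT3 was the highest mouse, and the log2 fold change of -0.23 ± 0.23 (SE) became 0.032 without it. Eif4a1 gave 92.1, 91.2 and 83.2 CPM in WT and 87.2, 90.9 and 104 CPM in Mut mice (0.084 ± 0.15, SE). The pseudogene Eif4a-ps4 on chromosome 1 gave 14.7 to 21.1 CPM and is near-identical to Eif4a1, so its counts and misplaced reads of Eif4a1 cannot be told apart. Eif4b and Eif4h, the helicase's partners, had log2 fold changes of 0.033 and -0.050.

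The eIF2 subunits carry the initiator tRNA. The 6 genes of this group, which include Eif2a and Eif2d besides the subunit genes, had log2 fold changes between -0.16 and 0.15. The upper end was Eif2d, and the subunit genes ran from -0.16 (Eif2s3x) to 0.060 (Eif2s2). Eif2s3x, the X-linked gamma subunit, gave 67.8, 75.2 and 71.6 CPM in WT and 71.3, 64.9 and 56.2 CPM in Mut mice. Its Y-linked paralog Eif2s3y was expressed in every mouse, at 38.6, 31.8 and 61.0 CPM in WT and 42.4, 47.4 and 40.7 CPM in Mut mice. The WT mice alone spanned the range of all 6 for Eif2s3y. Eif2d, which encodes a separate tRNA-delivering factor, gave 19.0, 17.2 and 17.8 CPM in WT and 21.2, 19.4 and 19.5 CPM in Mut mice. The Mut mice lay above the WT mice by a small step (log2 fold change 0.15 ± 0.15, SE, adjusted p = 0.821, edgeR), and the value was 0.034 after a correction for transcript length. Exons of Eif2s1, Eif2a and Eif2d overlap on the opposite strand with Atp6v1d, Serp1 and Rassf5. Those genes have 153%, 96.9% and 14.2% as many counts, so the levels of Eif2s1, Eif2a and Eif2d are uncertain.

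The kinases that phosphorylate eIF2 and thereby lower initiation under stress had a median log2 fold change of -0.21 over 4 genes, and 3 of the 4 lay below 0. Eif2ak1, the heme-regulated kinase, gave 35.8, 35.1 and 34 CPM in WT and 27.4, 30.8 and 30.1 CPM in Mut mice. The groups were each tight and did not overlap, with a log2 fold change of -0.25 ± 0.14 (SE, unadjusted p = 0.108, adjusted p = 0.665, edgeR). Its exons overlap on the opposite strand with Aimp2, which has 32.1% as many counts. Eif2ak3, the kinase of the endoplasmic reticulum (PERK), gave 9.49, 7.88 and 10.7 CPM in WT and 5.90, 7.41 and 8.10 CPM in Mut mice. WT2 lay between Mut2 and Mut3, and the log2 fold change was -0.39 ± 0.20 (SE, adjusted p = 0.623, edgeR). Its value was -0.28 without WT3, -0.28 without Mut1 and -0.16 without both. Eif2ak2 and Eif2ak4 had log2 fold changes of 0.075 and -0.17, the latter with Srp14 on the opposite strand at 411% of its counts.

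The eIF2B genes encode the exchange factor that recycles eIF2, and 4 of the 5 lay below 0. Eif2b5, the catalytic subunit, gave 44.7, 44.8 and 40.7 CPM in WT and 39.0, 40.1 and 39.0 CPM in Mut mice. The groups did not overlap, although WT3 and Mut2 were close (log2 fold change -0.14 ± 0.14, SE, adjusted p = 0.822, edgeR). The value was -0.24 after a correction for transcript length. The other eIF2B genes overlapped, with values from -0.22 for Eif2b4 to 0.20 for Eif2b2. Eif2b4 shares exons on the opposite strand with Snx17, which has 139% as many counts. Eif2b1 does so with Gtf2h3 and Ddx55, which have 58.9% and 34.3% as many counts.

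The eIF3 complex holds the small subunit in place for scanning, and its 14 genes had a median log2 fold change of 0.084, with 9 above 0 and 5 below. The values ran from -0.31 ± 0.16 (SE) for Eif3c to 0.38 ± 0.19 (SE) for Eif3i. Eif3i gave 50.3, 54.1 and 38.6 CPM in WT and 76.8, 57.5 and 51.1 CPM in Mut mice, with Mut3 inside the WT range. Eif3c gave 114, 115 and 92.9 CPM in WT and 76.6, 96.2 and 87.4 CPM in Mut mice, with Mut2 inside the WT range. Neither passed an unadjusted p of 0.05 (0.0726 and 0.0806). The value of Eif3i was 0.18 without Mut1, 0.24 without WT3 and 0.058 without both. Eif3i overlaps on the opposite strand with Tmem234, which has 52.7% as many counts.

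Eif3a, the largest subunit and the eIF3 gene with the highest CPM, which are not corrected for length, gave 166, 156 and 191 CPM in WT and 150, 143 and 156 CPM in Mut mice (log2 fold change -0.19 ± 0.15, SE). Eif3h gave 99.2, 92.5 and 73.2 CPM in WT and 140, 77.5 and 93.3 CPM in Mut mice (0.23 ± 0.22, SE). The value of Eif3h rested on Mut1 and was -0.054 without it. Values of the same complex thus lay on both sides of 0.

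Eif3j1 and Eif3j2 encode the loosely bound eIF3 subunit and are 99.2% identical over their coding sequences, so reads cannot be assigned safely between them. Eif3j1 gave 80.8, 77.1 and 96.5 CPM in WT and 84.0, 77.9 and 61.7 CPM in Mut mice, and Eif3j2 gave 10.7, 10.3 and 13.0 and 14.3, 13.1 and 8.54 CPM. The ratio of Eif3j2 to Eif3j1 was 0.133, 0.134 and 0.135 in WT and 0.17, 0.169 and 0.138 in Mut mice. This was the only paralog ratio whose groups did not overlap. The step from WT3 to Mut3 was small, and the exact permutation test gave its smallest possible p (p = 0.1).

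Eif1, which keeps the scanning ribosome from starting at the wrong codon, gave 362, 371 and 386 CPM in WT and 366, 362 and 306 CPM in Mut mice. Its paralog Eif1b gave 20.7, 17.9 and 16.6 CPM in WT and 18.3, 17.4 and 22.8 CPM in Mut mice. In both genes Mut3 lay at one end of the 6 mice, lowest for Eif1 and highest for Eif1b. The log2 fold changes of the 5 eIF1 and eIF1A genes ran from -0.11 to 0.081. Among them, Eif1ad overlaps on the opposite strand with Banf1, which has 103% as many counts, so its level is uncertain.

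Eif5b, the GTPase that joins the ribosomal subunits, gave 119, 103 and 123 CPM in WT and 98.2, 91.0 and 94.3 CPM in Mut mice. The groups did not overlap, and the log2 fold change was -0.29 ± 0.15 (SE, unadjusted p = 0.0804, adjusted p = 0.630, edgeR). Eif5, which makes eIF2 hydrolyse GTP at the start codon, gave 166, 167 and 213 CPM in WT and 190, 145 and 113 CPM in Mut mice (-0.29 ± 0.20, SE). In Eif5, Mut1 lay above WT1 and WT2, and the value was -0.12 without Mut3, -0.16 without WT3 and -0.50 without Mut1.

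Eif5a, whose product relieves stalled ribosomes and carries the hypusine modification, gave 154, 146 and 126 CPM in WT and 153, 154 and 174 CPM in Mut mice. Eif5a2 was near the bottom of the set, at 1.63, 2.67 and 2.41 CPM in WT and 3.43, 2.06 and 2.03 CPM in Mut mice. The ratio of its counts to those of Eif5a was 0.0107 to 0.0225. Eif6, which keeps the large ribosomal subunit from joining too early, had a log2 fold change of -0.021.

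The 8 ratios between paralogs were compared within mice, which does not depend on how the libraries are scaled. The Mut minus WT differences in the mean log2 ratio were -0.58 for Eef1a2/Eef1a1, -0.30 for Eif4a2/Eif4a1, 0.29 for Eif4e3/Eif4e and 0.30 for Eif4g3/Eif4g1. They were -0.027 for Eif5a2/Eif5a, 0.21 for Eif2s3y/Eif2s3x, 0.20 for Eif1b/Eif1 and 0.24 for Eif3j2/Eif3j1. The exact permutation p ran from 0.1 to 1, and the smallest after Benjamini-Hochberg adjustment over the 8 pairs was 0.533. This exact test cannot bring a single pair of genes under 0.05. Without WT3 the difference was -0.80 for Eef1a2/Eef1a1, -0.021 for Eif4a2/Eif4a1 and 0.16 for Eif4g3/Eif4g1, and that of Eif4a2/Eif4a1 was -0.074 without Mut3 and -0.52 without Mut1.

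**Figure D3:**
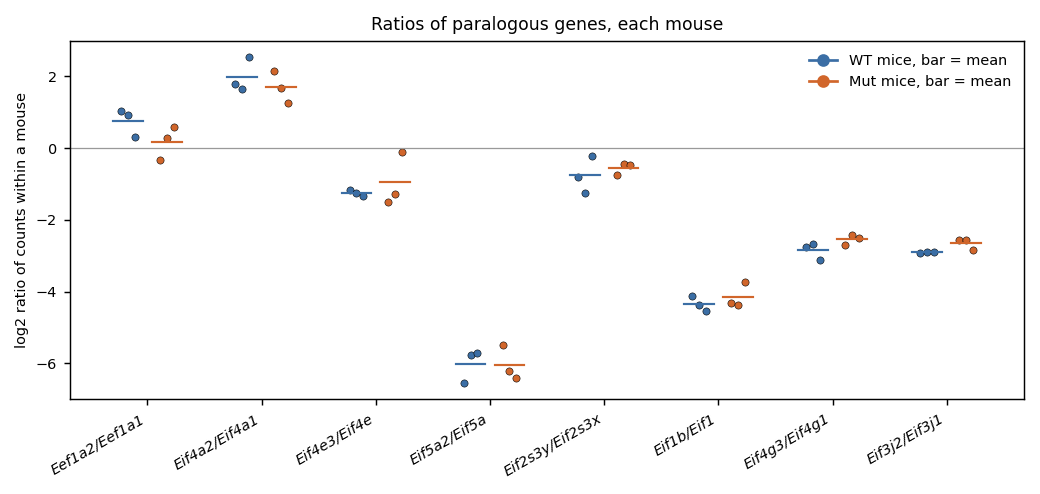
log2 ratio of the counts of paralogous genes within each mouse (blue, WT; orange, Mut; short bars, group means; 3 mice per group; grey line, equal counts). The Eef1a2/Eef1a1 ratio lies above equal counts in every mouse except Mut1, Mut3 stands apart for Eif4e3/Eif4e, and Eif3j2/Eif3j1 is the pair without overlap.

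The order of the levels depended on how length was counted. Per kilobase of coding sequence, the WT means were highest for Eif1 (1101 CPM per kilobase), Eef1a2 (676), Eif4g2 (411), Eef1a1 (399) and Eif4ebp2 (358). Per kilobase of the canonical GENCODE transcript, the order began with Eef1a1 (308), Eef2 (285), Eif1 (274), Eif4a2 (147) and Eif4g2 (140). Eef1a2 stood at 68.4 on that scale because its canonical transcript is annotated at 13742 bases against 1794 for Eef1a1. Since the annotation behind the counts is not given in the sources used here, which of the eEF1A genes had more transcripts per length cannot be settled. The lowest of the coding members per kilobase of coding sequence were the eIF2 kinase genes Eif2ak4 (1.64) and Eif2ak3 (2.80).

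The highest and lowest values were shared unevenly among the mice. Mut1 was the highest of the 6 mice for 16 and the lowest for 11 of the 54 initiation factor genes. Among the 14 elongation factor genes it was the highest for 6 and the lowest for 1. WT3 was the highest for 15 and the lowest for 13 of the initiation factor genes, and Mut3 the highest for 10 and the lowest for 18. Mut2 was at either end for only 9.26% of the initiation factor genes and WT1 for 14.8%. Over all genes WT3, Mut1 and Mut3 were also the most extreme, at 42.5%, 41.2% and 41.1% of genes. Summed over genes, the initiation factors came to 4908, 4935 and 5274 CPM in WT and 4945, 4646 and 4287 CPM in Mut mice. The elongation factors came to 3086, 2739 and 2381 CPM in WT and 3284, 2609 and 3324 CPM in Mut mice. Both sums overlapped between the groups.

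**Figure D4:**
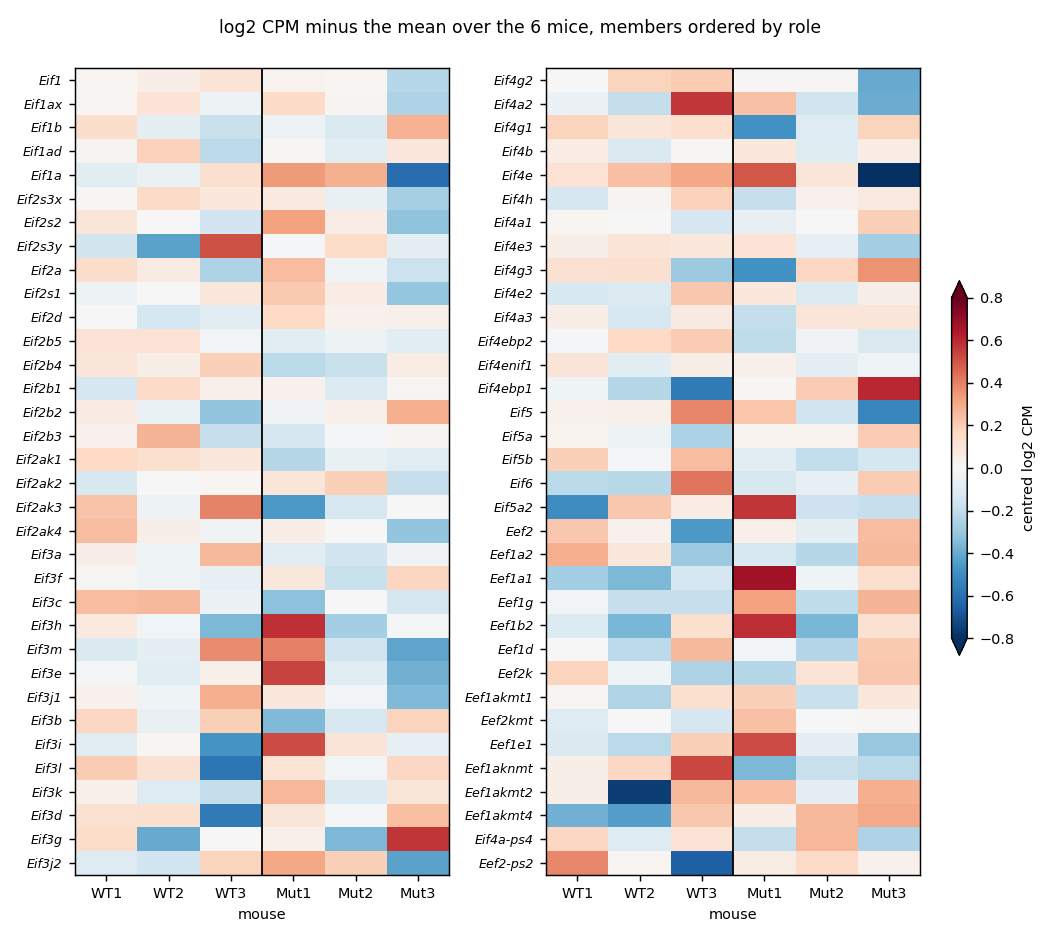
log2 CPM of each of the 68 genes minus its mean over the 6 mice (red above the mean, blue below; colours end at 0.8 either way), with genes ordered by role and the black line between WT and Mut mice. The strongest colours stand in the columns of WT3, Mut1 and Mut3.

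The differences varied with transcript length. The Spearman correlation of log2 fold change with the length of the canonical transcript was -0.51 across the 68 members and -0.22 across 17127 genes with a length, values across genes that share the same 6 libraries. Of the 34 shorter members (836 to 2566 bases) 25 lay above 0, with a median log2 fold change of 0.083. Of the 34 longer members (2582 to 13742 bases) 10 lay above 0, with a median of -0.080. The correlation over the members kept its sign without each mouse in turn (-0.48 to -0.43) and was -0.42 without both WT3 and Mut1. Over all genes it was -0.12 without Mut1 and ran to -0.25 without Mut2. Without Mut1, 18 of the 34 shorter and 7 of the 34 longer members lay above 0. Within mice, the correlation of a member's centred log2 CPM with length was 0.22, 0.43 and 0.24 in WT and -0.24, -0.087 and -0.24 in Mut mice. Over all genes it was 0.085, 0.22 and 0.021 in WT and -0.27, 0.067 and -0.13 in Mut mice. Each gene was centred on its mean over the same 6 mice. The values in WT and Mut mice are therefore tied and add no separate evidence to the relation above. RNA integrity was not among the values analysed here, and its part in the relation was not tested.

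**Figure D5:**
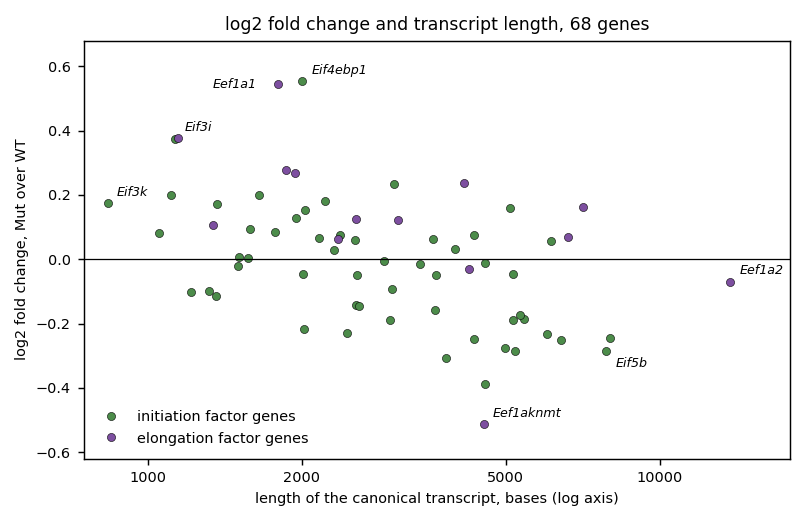
log2 fold change (Mut over WT) of the 68 genes against the length of the canonical transcript in bases on a log axis (green, initiation; purple, elongation; each point is 1 gene, from 3 mice per group). Points above 0 are mostly shorter transcripts such as Eef1a1, Eif4ebp1 and Eif3i, and Eef1a2 is the longest.

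Other genes of translation were read from the same fit, from lists of genes that do not carry these names. No gene of these lists passed the adjusted threshold. For comparison with the counts below, 51.4% of all genes tested had a log2 fold change above 0. Of 19 further genes for scanning and the cap, 4 lay above 0 and 15 below, with a median log2 fold change of -0.15. Dhx29, a helicase that helps scanning, gave 24.2, 25.5 and 22.6 CPM in WT and 16.9, 19.1 and 19.1 CPM in Mut mice (log2 fold change -0.39 ± 0.15, SE, adjusted p = 0.515, edgeR). Pdcd4, which inhibits eIF4A, had -0.40 ± 0.19 (SE). In both genes the Mut mice lay below the WT mice.

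Of 19 elongation, termination and rescue genes, 7 lay above 0 and 12 below, with a median of -0.12. Tpt1, whose product binds eEF1A, gave 736, 751 and 579 CPM in WT and 1128, 755 and 829 CPM in Mut mice (0.39 ± 0.20, SE, adjusted p = 0.615, edgeR). As for Eef1a1, Mut1 was the highest mouse and the groups did not overlap. Dph3, needed for the diphthamide on eEF2, had 0.32 ± 0.18 (SE).

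Of 16 genes of the integrated stress response, the programme set off by the eIF2 kinases, 9 lay above 0 and 7 below, with a median of 0.053. The smallest unadjusted p belonged to Impact and Gcn1, the inhibitor and the activator of the kinase encoded by Eif2ak4. Gcn1 gave 59.9, 60.7 and 64.3 CPM in WT and 36.3, 50.2 and 50.6 CPM in Mut mice (-0.43 ± 0.17, SE, adjusted p = 0.510, edgeR). Impact had -0.50 ± 0.19 (SE, adjusted p = 0.499), and neither gene overlapped between the groups. Of 12 mitochondrial translation factors, 2 lay above 0 and 10 below, with a median of -0.13. Gfm1, the mitochondrial elongation factor G, had -0.32 ± 0.18 (SE) and Mtif2, the mitochondrial initiation factor, -0.27 ± 0.16 (SE).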

How the data were processed

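Left ventricular RNA of 6 mice was sequenced by the study. The authors trimmed reads with Trim Galore, aligned them to GRCm39 with HISAT2, excluded rRNA and deposited whole-number counts per gene from StringTie (versions, annotation and counting strand are not given in the sources used here). A second deposited table, used here for gene names and so for the choice of members, holds the authors' own comparison: log2 fold changes, CPM and p-values. Those values were not used.

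Genes were kept with filterByExpr, scaled by TMM and tested with edgeR 4.0.16 (quasi-likelihood test, robust, two-sided, R 4.3.3, Benjamini-Hochberg over all genes, threshold 0.05). CPM use TMM-scaled library sizes. The series gives 3 mice per group, while litter and library batch are not given in the sources used here. Positions and lengths are from GENCODE for GRCm39, and 98.8% of gene IDs matched. Coding sequences are from its canonical transcripts. Near-identical copies were transcripts aligned at 95% identity over 300 bases. Paralog ratios added 0.5 counts to each gene.

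The members and lists were chosen with earlier results of these data known. Named were all elongation members and, of the initiation members, the most abundant of each role, those with unadjusted p under 0.05 or without overlap, the 3 largest fold changes each way and the paralogs. Of each other list, 2 genes with the smallest p were named. Alternatives used DESeq2 1.42.0, other scalings, tests and filters, and left mice out. The count test was tested on simulated data: of 200 genes changed by a log2 fold change of 1 among 17212, it called 104, with 10 unchanged genes. Depth was 66130887 to 72641124 counts per mouse, and 3 counts correspond to 0.0317 to 0.0541 CPM. Counting error was not compared with the spread between mice for each member.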

Additional observations from a re-analysis of the deposited data

How the results depend on the processing

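No alternative called a member at an adjusted p under 0.05, and an unadjusted p under 0.05 gave 1 initiation and 2 elongation members. The number of all genes called was 7 and became 21 with library size only, 150 with DESeq2's Wald test, 140 with edgeR's exact test, 20 with no filter on low counts, 16 at an adjusted p under 0.1 and 1486 at an unadjusted p under 0.05. It was 1 without both WT3 and Mut1 and 2 to 4 without each mouse in turn. With the replicate block it was 1. The titles number the mice but do not say whether same-numbered mice are pairs. With values centred within each group, correlations between same-numbered mice were -0.0013, 0.022 and -0.057. Such correlations cannot settle whether litters or batches were shared. The block called no member. Scaling by library size only moved the median of all genes to -0.14. The median log2 fold change of the initiation factor genes (-0.018) became -0.21 with library size only, 0.025 with upper quartile normalization, -0.093 without both WT3 and Mut1 and -0.12 after length correction. It ran from -0.083 to -0.026 without each mouse in turn, with the lowest value without Mut1. That of the elongation factor genes (0.12) stayed above 0 in every alternative, at 0.012 with library size only, 0.077 without both WT3 and Mut1, 0.078 after length correction and 0.094 to 0.22 without each mouse in turn, with the highest value without WT1.

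Without each mouse in turn, the paralog differences ran from -0.13 to 0.56 for Eif4e3/Eif4e, from -0.31 to 0.16 for Eif5a2/Eif5a, from -0.034 to 0.47 for Eif2s3y/Eif2s3x and from -0.0067 to 0.31 for Eif1b/Eif1. They ran from -0.80 to -0.32 for Eef1a2/Eef1a1, from -0.52 to -0.021 for Eif4a2/Eif4a1, from 0.16 to 0.39 for Eif4g3/Eif4g1 and from 0.19 to 0.34 for Eif3j2/Eif3j1. Of 42 named members 23 kept their sign in every alternative, Eef1a1, Eif4ebp1 and Eef1aknmt among them, and 19 did not. With library size only the log2 fold change was -0.11 for Eef1e1, -0.13 for Eef1akmt1, -0.036 for Eef2k, -0.011 for Eif2d, -0.048 for Eif4a1, -0.055 for Eif5a2, -0.042 for Eif1b, -0.022 for Eif4g3 and -0.15 for Eif3j2. With upper quartile normalization it was 0.014 for Eef1d and 0.033 for Eif2s3y, which also gave 0.043 with the replicate block. Length correction gave 0.053 for Eef1a2, -0.043 for Eef1akmt1, -0.048 for Eef2-ps2, -0.046 for Eif4a1, -0.098 for Eif1b and -0.030 for Eif3j2. Without both WT3 and Mut1 it was -0.019 for Eef1e1, -0.031 for Eef2, 0.11 for Eef1d, -0.12 for Eef2-ps2, -0.17 for Eif3h, -0.076 for Eif5a2 and 0.32 for Eif2s3y.

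Without each mouse in turn, the log2 fold change ran from -0.16 to 0.29 for Eef1e1, -0.23 to 0.067 for Eef1a2, -0.038 to 0.16 for Eef1akmt1, -0.0086 to 0.47 for Eef1b2, -0.0083 to 0.45 for Eef1akmt2, -0.050 to 0.27 for Eef2, -0.033 to 0.18 for Eef2k, -0.15 to 0.098 for Eef1d and -0.13 to 0.36 for Eef2-ps2. It ran from -0.054 to 0.40 for Eif3h, -0.43 to 0.032 for Eif4a2, -0.66 to 0.084 for Eif4e, -0.14 to 0.30 for Eif5a2, -0.20 to 0.30 for Eif2s3y, -0.048 to 0.17 for Eif1b, -0.12 to 0.26 for Eif4g3 and -0.077 to 0.27 for Eif3j2. Members that kept their sign without each mouse but moved by over 1.5 times ran from 0.073 to 0.20 for Eef2kmt, 0.18 to 0.42 for Eef1g, 0.26 to 0.62 for Eef1akmt4, -0.32 to -0.12 for Eif4g2, -0.42 to -0.10 for Eif4g1, -0.17 to -0.036 for Eif1, -0.26 to -0.10 for Eif3a, 0.18 to 0.50 for Eif3i, -0.29 to -0.067 for Eif3j1, -0.25 to -0.070 for Eif2s3x, -0.50 to -0.12 for Eif5, 0.093 to 0.23 for Eif5a, -0.25 to -0.055 for Eif4e3, 0.0036 to 0.13 for Eif4a1 and -0.29 to -0.0044 for Eif4a-ps4. Some other values that kept their sign but moved by over 1.5 times were, without both WT3 and Mut1, 0.41 for Eef1akmt2, 0.69 for Eef1akmt4, 0.13 for Eef1b2, 0.16 for Eef1g, 0.053 for Eef2kmt, -0.24 for Eif2s3x, -0.10 for Eif3a, -0.61 for Eif4e, -0.24 for Eif4e3, -0.096 for Eif4g1 and -0.0063 for Eif4a-ps4, and after length correction 0.21 for Eef1akmt4, 0.15 for Eef1b2, 0.027 for Eef1e1, 0.15 for Eef1g, 0.042 for Eef2, -0.27 for Eif1, 0.15 for Eif3h, 0.20 for Eif3i, -0.25 for Eif4e3, 0.018 for Eif5a and -0.27 for Eif4a-ps4. Eef1a1 and Eif4ebp1 also kept their sign and moved by over 1.5 times. Without each mouse in turn they ran from 0.30 to 0.68 and from 0.37 to 0.68. Eef1a1 had 0.33 with library size only. The cause of these shifts was not tested. Leaving mice out of the relation with length was added after seeing the data. With 3 mice per group the 95% intervals of the main fit exclude 2-fold changes for 67 members and 1.5-fold changes for 44. Each interval is for a single gene and is not adjusted. Some ended close to the 2-fold bound, such as that of Eif4ebp1, at 0.99 on the log2 scale. The intervals were not counted for the alternatives. What sets these limits was not tested.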
